A study of Mus musculus with 2 samples.

Results

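The genes described here are 45 mouse genes of DNA repair and the DNA damage response, chosen by name from the pathways of homologous recombination, end joining, mismatch repair, excision repair and damage signalling. A probe was taken where the platform's annotation gave it exactly 1 gene symbol equal to a listed gene and where it had a value on both arrays. By that rule 43 probes of 41 genes were found, among 14150 singly named genes in all. Exo1 and Rad52 had 2 probes each, which were averaged to 1 value per gene and array. Trp53, Xrcc2, Xrcc3 and Lig4 were not analysed here.

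The study compared effector CD8+ T cells after 2 rounds of stimulation in culture with such cells after 1 round. The pmel mouse that gave the cells has a transgenic T cell receptor against the melanocyte antigen gp100. Both stages were put on the same 2-colour microarray as total RNA, where channel 2 held the cells after 2 stimulations and channel 1 those after 1. The comparison was run on 2 arrays, the second being a repeat of the first, and whether a separate culture was used for it is not stated. The SDs therefore measure only how far 2 arrays lay apart, and that spread may be technical. P-values and confidence intervals also draw on the spread pooled over all probes, which comes from the same 2 arrays. All cells were transgenic and all had been stimulated, so no resting and no non-transgenic cells enter these values.

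Each value is the log2 ratio of the channels for 1 probe. The sources used here state neither the numerator nor the log base, which was taken as 2. The titles name the cells after 1 stimulation first, which on that order alone makes a ratio of 1 stimulation over 2 likely. In that reading a transcript higher after 2 stimulations has a negative value, and one higher after 1 has a positive value. Under the opposite order this turns round, so the results are given as the negative and the positive side of the ratio. A ratio gives no level, so genes cannot be ranked by abundance. It also cannot show whether more of the cells express a gene or each cell holds more of its RNA. The same stage was in channel 1 on both arrays, so dye bias and a difference in RNA cannot be told apart where the dyes were not swapped. No intensity of a spot was used here, which leaves the signal under each ratio unknown, and with 2 arrays their number limits precision.

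DNA repair is divided by the kind of lesion. Double-strand breaks are repaired by homologous recombination, which copies the sister chromatid and so works in S and G2 phase, or by end joining, which works throughout the cell cycle. Mismatch repair corrects copying errors, and the excision pathways remove damaged bases or bulky lesions. The kinases ATM and ATR sense breaks and stalled replication forks and signal through CHEK2 and CHEK1 and through p53. Activated CD8+ T cells divide very fast, so their replication forks depend on this machinery, and E2F transcription factors raise many of its genes as cells enter S phase.

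The repair genes as a set lay toward the negative side, more so on array 2 and among the S phase genes set apart below. Both arrays gave a negative value for 24 of the 41 measured genes and a positive value for 7, where all 14150 genes had shares of 33.6% negative and 29.6% positive. Their median log2 ratio was -0.21, with -0.13 on array 1 and -0.30 on array 2, and the median of all genes was -0.02. The gene means ran between -1.23 for Chek1 and 0.75 for Xpa. At least 2-fold on both arrays was 1 gene on the negative side and 0 on the positive side, against 0.721% and 0.233% of all genes. Limma's moderated test, adjusted over 21427 probes, called 0 of the 43 probes at 0.05 and 0.0% of all probes. At an unadjusted p under 0.05 limma had 12 of these probes on the negative side and 4 on the positive side, where all probes had 8.0% and 6.87%. With no moderation of the spread, 1 of these genes was called, Parp1, whose values of -0.25 were identical on both arrays. Of 21420 probes 241 were called that way, all 241 with identical values, so such calls came from a spread of 0. The single genes below are therefore described by their values and by the agreement of the arrays.

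The side counts rest partly on having both arrays. On array 1 alone (without replicate 2) 25 of the 41 genes were negative and 15 positive, where 51.6% of all genes were negative and 47.1% positive. On array 2 alone (without replicate 1) 32 were negative and 8 positive, where all genes had 51.0% and 47.5%. At least 2-fold on the negative side were 2 of the 41 on array 1, against 1.56% of all genes, and 3 on array 2, against 3.09%. Across the 41 genes, which share the same RNA pair and hybridisations, the arrays correlated with Pearson's r = 0.74, and over all genes r was 0.52. The arrays' difference had a standard deviation of 0.333 for the repair genes and 0.416 for all genes.

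**Figure D1:**
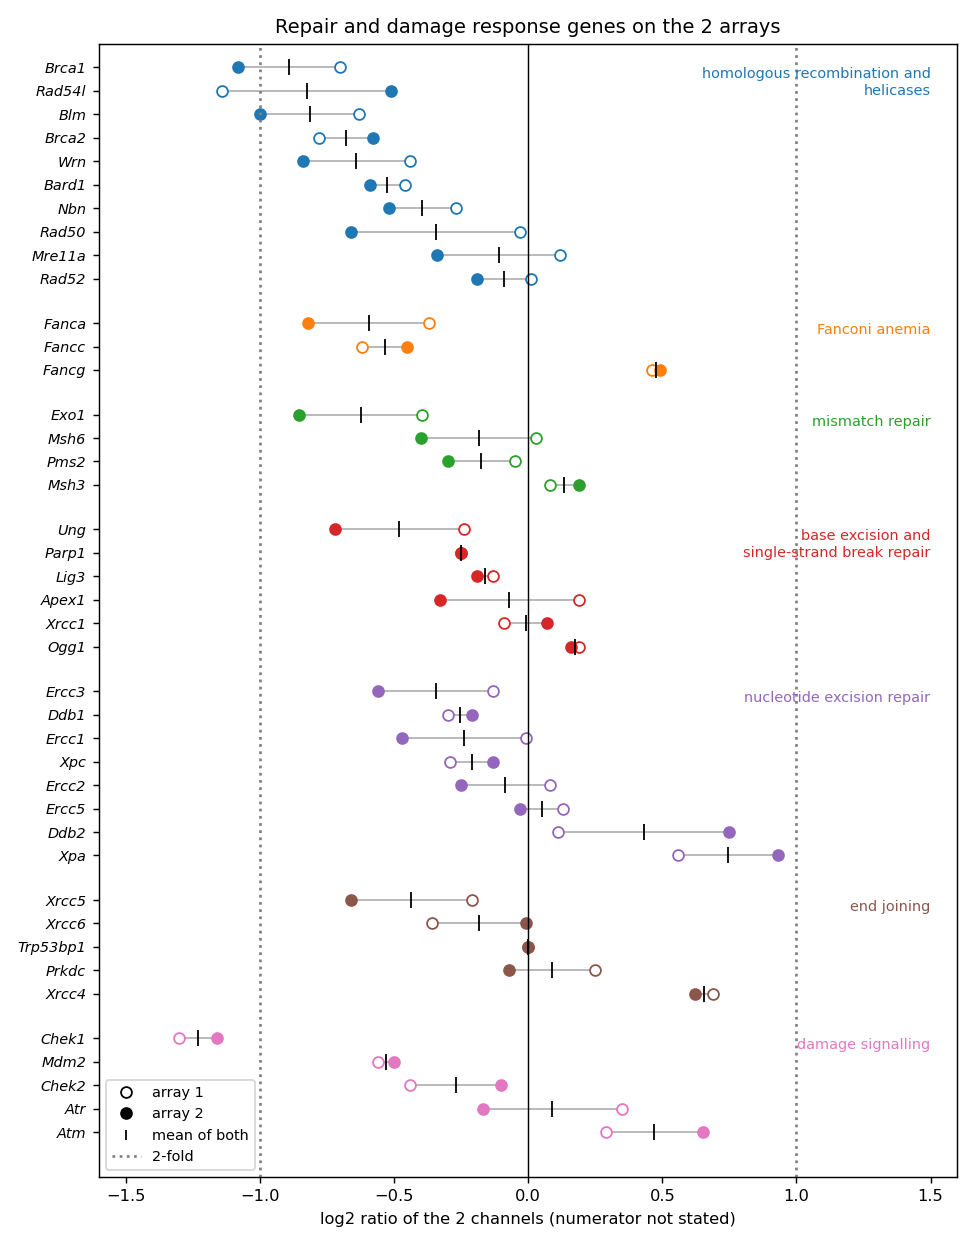
Log2 ratio of the 41 repair genes on array 1 (open circles) and array 2 (filled circles), grouped by pathway, with a bar at the mean and dotted lines at 2-fold. Chek1 is the only gene beyond the dotted line on both arrays, and Xpa (mean 0.75) and Xrcc4 (mean 0.66) lie farthest to the right.

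Homologous recombination and its helicases lay farthest to the negative side among the larger pathways. The arrays shared a negative sign for 8 of 10 measured genes and a positive sign for 0, the median was -0.58, and limma called none after adjustment. Over all genes the shares of these signs were 33.6% and 29.6%. Brca1, the tumour suppressor that directs resected breaks to recombination, read -0.70 and -1.08 on the 2 arrays, a mean of -0.89 ± 0.27 (SD, n = 2) or 1.85-fold. Limma's 95% confidence interval for that mean was -1.33 to -0.45, with an adjusted p of 0.181. Its partner gene Bard1, whose protein forms a ubiquitin ligase with BRCA1, read -0.46 and -0.59. Brca2, a tumour suppressor needed for recombination, read -0.78 and -0.58. These 3 genes thus stood on the same side on both arrays, and their means spanned -0.89 to -0.53.

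Rad54l, a motor protein that helps strand invasion, read -1.14 and -0.51, so its distance from 0 differed between arrays more than for Brca2. Blm, the helicase lost in Bloom syndrome, which dissolves crossed recombination intermediates, read -0.63 and -1.0. Wrn, its relative lost in Werner syndrome, read -0.44 and -0.84. Both helicase genes were farther from 0 on array 2. The MRE11 complex, which binds broken ends and activates ATM, lay nearer 0. Its subunit genes read -0.27 and -0.52 for Nbn, -0.03 and -0.66 for Rad50, and 0.12 and -0.34 for Mre11a. The sign of Mre11a changed between arrays, and the Rad50 value came almost wholly from array 2. Rad52, an annealing protein that assists recombination, had 1 probe at -0.36 and -0.05 and 1 at 0.38 and -0.33, which gives no side for the gene.

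The Fanconi genes, whose core complex marks crosslinked DNA for repair, split. Fanca read -0.37 and -0.82, and Fancc read -0.62 and -0.45. Fancg, a core complex subunit like the other two, read 0.46 and 0.49, a mean of 0.48 ± 0.02 (SD, n = 2). Limma's adjusted p was 0.268 for Fanca, 0.249 for Fancc and 0.265 for Fancg. Subunits of the same complex thus lay on opposite sides, each with the same sign on both arrays.

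The 4 mismatch repair genes had a median of -0.18, and the arrays shared a negative sign for 2 and a positive sign for 1. Exo1, the exonuclease that removes the mismatched strand and also resects breaks, had probes that disagreed. The probe annotated to its RefSeq transcript read -1.03 and -1.37, and the other, annotated to a cDNA clone, read 0.24 and -0.34. The first was at least 2-fold on both arrays, so by probe 2 of the 43 met that rule on the negative side, where 0.579% of all probes did. Limma's adjusted p was 0.162 for the first probe and 0.924 for the second. The mean of the gene, -0.63, describes neither probe. Msh6 and Msh3 encode subunits of the complexes that recognise mismatches. Msh6 read 0.03 and -0.40 and Msh3 0.08 and 0.19. Pms2, the endonuclease subunit that nicks the strand, read -0.05 and -0.30. All 3 lay within 0.40 of 0 on both arrays.

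Base excision and single-strand break repair stayed close to 0, with a median of -0.115 over 6 genes, a shared negative sign for 3 and a shared positive sign for 1. Shares over all genes were 33.6% and 29.6%. Ung, the glycosylase that removes uracil from DNA and acts on the product of AID in B cells, stood apart at -0.24 and -0.72. Its mean was -0.48 ± 0.34 (SD, n = 2), with an adjusted p of 0.334 in limma. Ogg1, the glycosylase for oxidised guanine, read 0.19 and 0.16. The next steps are taken by the endonuclease APEX1, whose gene read 0.19 and -0.33, and by the break sensor PARP1, whose gene read -0.25 on both arrays. Xrcc1, the scaffold of single-strand break repair, read -0.09 and 0.07. Its ligase partner Lig3 read -0.13 and -0.19. The genes of the scaffold and its ligase both lay within 0.19 of 0 on each array.

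Nucleotide excision repair held the gene farthest on the positive side. Of 8 genes, 4 shared a negative sign between arrays and 2 a positive sign, and the median was -0.15. Xpa, which verifies the lesion and organises the incision complex, read 0.56 and 0.93, a mean of 0.75 ± 0.26 (SD, n = 2) or 1.68-fold. Limma's 95% confidence interval was 0.31 to 1.18, with an adjusted p of 0.203. The damage recognition genes did not share that side as a group. Xpc read -0.29 and -0.13, Ddb1 -0.30 and -0.21, and Ddb2, the damage-binding partner of DDB1 and a p53 target in human cells, 0.11 and 0.75. The genes of the DDB1 and DDB2 proteins, which act as 1 complex, lay on opposite sides on both arrays. Limma's 95% interval nevertheless included 0 for each, at -0.63 to 0.12 for Ddb1 and -0.12 to 0.98 for Ddb2.

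Ercc3 and Ercc2, the helicase subunits of the transcription factor TFIIH that open the helix, read -0.13 and -0.56 for Ercc3 and 0.08 and -0.25 for Ercc2. Genes of the nucleases that cut on either side of the lesion read -0.01 and -0.47 for Ercc1, which encodes a non-cutting subunit, and 0.13 and -0.03 for Ercc5. The TFIIH and nuclease genes stayed within 0.56 of 0 on each array, and Ercc2 and Ercc5 changed sign between arrays.

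The end joining genes had a median of 0.00 over 5 genes, of which 2 shared a negative sign and 1 a positive sign. For so few genes these shares, 40.0% and 20.0%, lay near the 33.6% and 29.6% of all genes. Xrcc4, the scaffold of the ligase that seals the break, read 0.69 and 0.62, a mean of 0.66 ± 0.05 (SD, n = 2) or 1.57-fold. Limma's interval was 0.29 to 1.02, with an adjusted p of 0.195. The genes of the Ku ring, which slides onto broken ends, read -0.21 and -0.66 for Xrcc5 and -0.36 and -0.01 for Xrcc6. Prkdc, the kinase recruited by Ku, read 0.25 and -0.07. Trp53bp1, the chromatin reader that shields ends from resection, read 0.00 on both arrays. Xrcc4 was thus the only one of these 5 genes on the positive side of both arrays. The Ku genes were negative, although Xrcc6 was only just so on array 2 at -0.01, and the kinase gene changed sign.

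Damage signalling held the gene farthest from 0, although the median of its 5 measured genes was -0.27, with a shared negative sign for 3 and a shared positive sign for 1. Among all genes 33.6% shared a negative and 29.6% a positive sign. Chek1, the kinase that ATR activates when forks stall, read -1.30 and -1.16, a mean of -1.23 ± 0.10 (SD, n = 2) or 2.35-fold. Limma's 95% confidence interval was -1.61 to -0.85, with an adjusted p of 0.162. It was the only one of the 41 gene means at least 2-fold on both arrays. Atr, its upstream kinase, read 0.35 and -0.17, so its sign changed between arrays. In the branch that answers double-strand breaks, Atm read 0.29 and 0.65, with an adjusted p of 0.308. Chek2, the kinase that ATM activates, read -0.44 and -0.10. The effector kinase genes were thus negative on both arrays, while neither sensor kinase gene was. Mdm2, the ubiquitin ligase that degrades p53 and is itself induced by p53, read -0.56 and -0.50, with an adjusted p of 0.240.

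**Figure D2:**
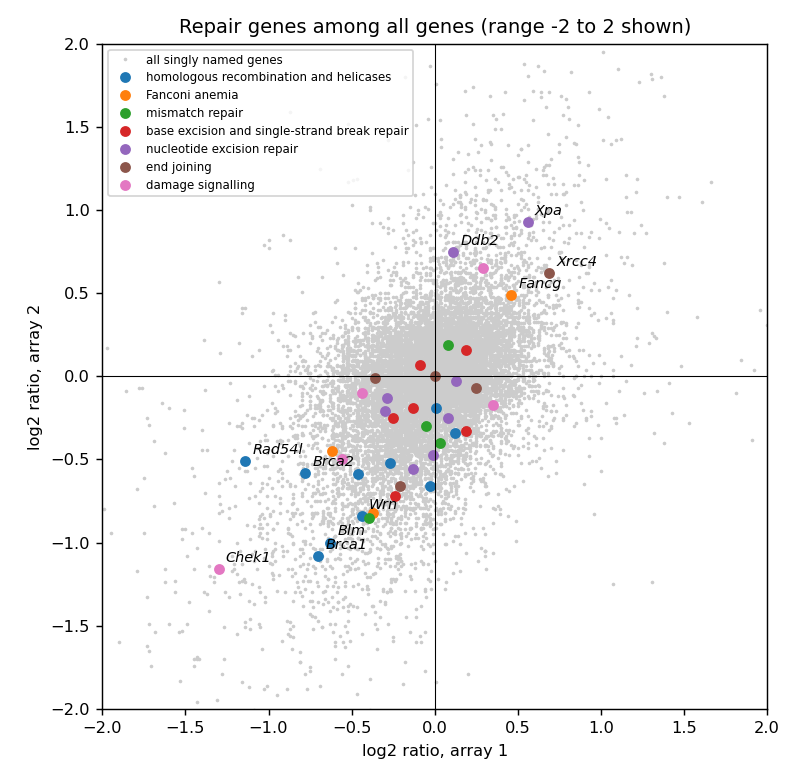
Log2 ratio on array 1 (horizontal) against array 2 (vertical) for all 14150 singly named genes (grey) and the 41 repair genes, coloured by pathway. Chek1, Brca1, Blm, Rad54l and Brca2 lie in the lower left, and Xpa, Xrcc4 and Fancg in the upper right. Genes beyond 2 on either axis are outside the plot.

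Members known as S phase, G2 phase or E2F-regulated genes were set apart from the others by a list drawn from general knowledge. The list was written with earlier results of these data known, so the split is a description and no independent support. The 9 genes are Brca1, Brca2, Bard1, Rad54l, Chek1, Exo1, Blm, Ung and Msh6. Negative on both arrays were 8 of them, and none was positive on both, where all genes had shares of 33.6% and 29.6%. Exo1 is among the 8 by its mean, although 1 of its 2 probes changed sign between arrays. The median of the 9 genes was -0.68 (-0.63 on array 1, -0.72 on array 2). The other 32 members had 16 genes negative on both arrays and 7 positive, and their median was -0.135 (-0.02 on array 1, -0.19 on array 2). All genes had medians of -0.02 on array 1 and -0.01 on array 2. On array 1 the median of these 32 thus equalled that of all genes. Limma called none in either set after adjustment. Every member that was positive on both arrays was outside the S phase list. Wrn, Fanca and Fancc were the members outside that list with means below -0.53, chosen here after their values were seen.

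Lists of other genes of dividing cells, also chosen with earlier results of these data known, were set beside these sets. The DNA replication genes had a median of -0.76, and the arrays shared a negative sign for 35 of 42 and a positive sign for 1. Over all genes the shares of these signs were 33.6% and 29.6%. The mitosis genes had a median of -0.93, with a shared negative sign for 23 of 30 and a positive sign for 1. On the negative side 0.721% of all genes were at least 2-fold on both arrays. Of the 42 replication genes 8 met that rule, all negative, with means between -1.61 for Rfc3 and -1.03 for Rfc5. The others were Gins1, Rfc4, Rrm2, Cdc45, Dut and Prim1, which encode parts of the replication fork and enzymes of nucleotide supply. Of the 30 mitosis genes 8 met that rule, again all negative, with means between -1.485 for Bub1 and -1.145 for Birc5. The others were Nusap1, Mki67, Ccnb2, Ndc80, Incenp and Ncapg. The replication and mitosis medians lay near that of the 9 S phase repair genes and farther from 0 than that of the other repair genes. These lists share no gene with the repair members, and the differences between lists were not tested.

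A wider list of 105 further repair genes had 69 measured, of which 34 shared a negative sign and 10 a positive sign, and their median was -0.135. All genes had shares of 33.6% negative and 29.6% positive. Limma called 0 of the 69 after adjustment. At least 2-fold on both arrays were 3 of the 69, all negative, where 0.721% of all genes were so on that side. Lig1, the ligase that joins Okazaki fragments and completes long-patch excision repair, read -1.22 and -1.17. Fen1, the flap nuclease of the same steps, read -1.17 and -1.31. Tipin, a fork protection factor that supports CHEK1 activation, read -1.12 and -1.87. All 3 encode proteins that also act at the replication fork, although other genes of fork proteins in that list did not meet the rule. Pcna, the sliding clamp that LIG1 and FEN1 bind, read -0.11 and -0.51.

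By pathway, the further recombination genes had a median of -0.215 (a shared negative sign for 7 of 12, a shared positive sign for 1). For the further nucleotide excision genes it was -0.25 (7 of 12 and 1), and for the further damage signalling genes -0.145 (11 of 21 and 4). The further end joining genes, at -0.095 (2 of 5 and 1), and the further base excision genes, at -0.065 (5 of 13 and 2), lay closer to 0. The few further mismatch repair genes stood at 0.005 (0 of 3 and 1) and the further Fanconi genes at -0.345 (2 of 3 and 0). Over all genes the shares were 33.6% negative and 29.6% positive, and several of these lists are small.

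**Figure D3:**
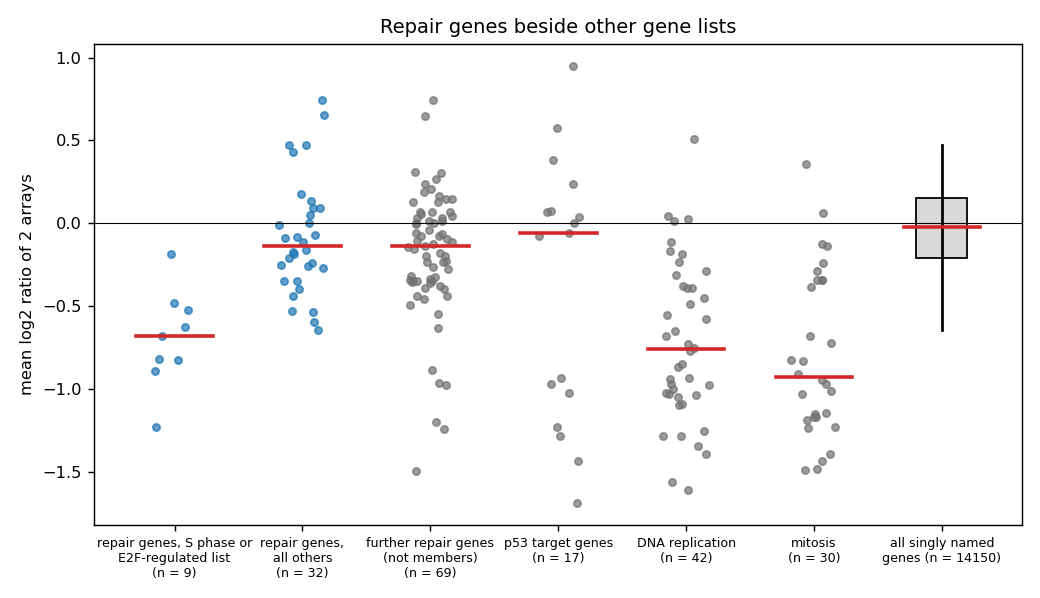
Mean log2 ratio of both arrays per gene (points) with the list median (red line) for the repair genes in the S phase list, the other repair genes, further repair genes, p53 targets, DNA replication and mitosis, and for all singly named genes as a box (quartiles) with a line over the 5th to 95th percentile. The medians are -0.68 and -0.135 for the repair sets, -0.76 for replication and -0.93 for mitosis, and -0.02 for all genes.

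Genes induced by p53 were examined beside Mdm2, since Trp53 itself was not analysed here. Of 19 listed targets, 17 were measured, their median was -0.06, the arrays shared a negative sign for 8 and a positive sign for 5, and limma called 0. These signs make 47.1% negative and 29.4% positive, where all genes had 33.6% and 29.6%, so the positive share lay near that of all genes. At least 2-fold on both arrays were 4 of the 17, all negative, where 0.721% of all genes were so on that side. Cdkn1a, the inhibitor of cyclin-dependent kinases that p53 induces in the arrest response, read -1.72 and -1.65. Phlda3, an inhibitor of AKT, read -1.56 and -1.30. Ccng1, the cyclin G1 gene, read -1.11 and -1.46, and Ei24 -1.09 and -1.37. Mdm2 lay on the same side as these 4 genes at a smaller distance from 0.

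The list was divided. Aen, a nuclease gene, read -0.67 and -1.37, Pmaip1, which encodes the death-promoting protein NOXA, -0.58 and -1.36, and Zmat3 -0.64 and -1.22. On the positive side Fas, the death receptor gene, read 0.79 and 1.11, and Sesn1, a stress-induced regulator of growth signalling, 0.32 and 0.83. These 5 were named after their values were seen. Gadd45a, the damage-induced growth arrest gene, read 0.23 and 0.53. The median near 0 thus covers 7 genes with means of -0.93 or lower and a gene at 0.95.

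**Figure D4:**
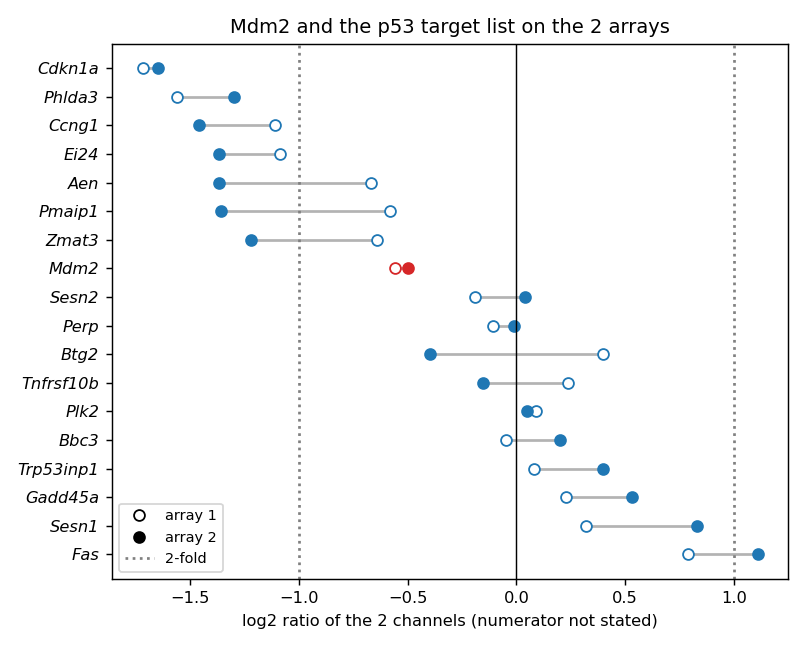
Log2 ratio on array 1 (open) and array 2 (filled) of Mdm2 (red) and of 17 listed p53 target genes (blue), sorted by mean. Cdkn1a, Phlda3, Ccng1 and Ei24 lie beyond 2-fold on the negative side on both arrays, and Fas is at 0.79 and 1.11.

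Promoter windows were read from RefSeq (build GRCm38.p6), covering 250 bases before to 50 after each gene's start. Of the 41 measured genes, 33 had a window there. They were searched on both strands for the E2F site written as TTTCCCGC, TTTCGCGC, TTTGCCGC or TTTGGCGC, because E2F factors are known to act on part of this list. The letters were found in 7 of the 33 windows (21.2%), in 13 of 34 windows of the measured replication genes (38.2%) and in 3.32% of the 11127 windows of all measured genes. A match is a description of the letters and not a site shown to be used.

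The genes with a match lay on both sides. They were Brca2, Bard1, Chek2, Xrcc6 and Msh6, with means of -0.68, -0.53, -0.27, -0.185 and -0.185, and Msh3 and Fancg, with 0.135 and 0.48. By sign, 4 of 18 windows of genes negative on both arrays held the letters and 2 of 6 windows of genes positive on both. Among the S phase list they were in 3 of 8 windows (37.5%) and among the other measured members in 4 of 25 (16.0%). The window of Chek1, the gene farthest from 0, held none. The CCAAT box, searched as CCAAT on both strands, was found in 19 of the 33 windows (57.6%) and in 38.3% of all measured genes' windows. The mitotic CHR element, searched as TTTGAA, was found in 2 (6.06%), and in 13.7% of all.

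The stretches that hold the E2F letters before the start site are shown so that the spread of their genes over both sides can be seen beside the letters, with the match in capitals, in order of the mean log2 ratio. Each is 100 bases in the direction of the gene. They are at chr5:150522407-150522506 on the plus strand for Brca2, chr1:71103123-71103222 on the minus strand for Bard1, chr5:110839785-110839884 on the plus strand for Chek2, chr15:82016269-82016368 on the plus strand for Xrcc6, chr13:92355150-92355249 on the minus strand for Msh3 and chr4:43010302-43010401 on the minus strand for Fancg. In Msh3 2 matches on opposite strands overlap. The match of Msh6 lies after its start and is not shown.
Brca2: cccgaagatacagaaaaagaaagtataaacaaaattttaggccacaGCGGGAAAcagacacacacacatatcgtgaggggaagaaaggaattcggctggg
Bard1: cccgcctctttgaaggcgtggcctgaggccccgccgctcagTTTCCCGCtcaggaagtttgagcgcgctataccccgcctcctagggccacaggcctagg
Chek2: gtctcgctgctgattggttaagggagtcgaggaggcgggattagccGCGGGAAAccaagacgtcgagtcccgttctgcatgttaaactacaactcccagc
Xrcc6: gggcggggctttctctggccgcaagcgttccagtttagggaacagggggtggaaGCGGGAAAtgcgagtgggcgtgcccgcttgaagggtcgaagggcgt
Msh3: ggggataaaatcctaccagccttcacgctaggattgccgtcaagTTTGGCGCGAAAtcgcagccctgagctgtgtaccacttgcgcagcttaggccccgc
Fancg: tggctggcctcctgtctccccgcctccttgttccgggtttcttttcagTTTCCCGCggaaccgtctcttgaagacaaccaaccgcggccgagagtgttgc

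The genes at the ends of the range are shown by the 250 bases before their start. Chek1, with a mean of -1.23, lies at chr9:36726659-36726908 on the minus strand, and Xpa, with a mean of 0.75, at chr4:46196312-46196561 on the minus strand. Neither window held the E2F letters, so no base is in capitals.
Chek1: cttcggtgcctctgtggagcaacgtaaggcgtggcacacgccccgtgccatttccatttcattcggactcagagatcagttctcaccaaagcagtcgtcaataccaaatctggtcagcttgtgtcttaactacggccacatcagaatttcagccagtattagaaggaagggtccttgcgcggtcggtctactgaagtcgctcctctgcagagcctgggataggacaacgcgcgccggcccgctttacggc
Xpa: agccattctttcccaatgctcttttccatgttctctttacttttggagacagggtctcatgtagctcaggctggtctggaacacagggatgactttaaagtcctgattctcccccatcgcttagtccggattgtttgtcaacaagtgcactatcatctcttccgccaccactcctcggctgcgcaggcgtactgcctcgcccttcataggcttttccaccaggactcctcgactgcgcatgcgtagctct

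Markers of cell types were read in the same way. The ratios cannot show whether a marker is present, so the label CD8+ was not checked by level. The 7 measured CD8 T cell markers had a median of 0.275 and a range of -0.15 to 0.64, with a shared negative sign for 0 and a shared positive sign for 5, and Cd8a read 0.37 and 0.90 and Cd3e -0.09 and 0.45. B cell markers also lay on the positive side, with a shared negative sign for 0 of 8 and a positive sign for 6, a median of 0.25 and a range of 0.035 to 1.15. The 6 myeloid markers had a median of -0.11, a shared negative sign for 2 and a positive sign for 1, and a range of -0.375 to 0.21. The 4 NK cell markers had a median of -0.335, a shared negative sign for 3 and a positive sign for 1, and a range of -1.325 to 0.46. Cd4 read -0.11 and 0.02. The B and CD8 T cell markers thus lay mostly on the positive side and the 4 NK cell markers mostly on the negative side. All genes had shares of 29.6% positive and 33.6% negative on both arrays. The part of other cell types in the repair values was not tested.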

How the data were processed

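The series holds 2 two-channel microarrays of 1 comparison. The authors deposited 1 value per probe and array, used here as a log2 ratio of the channels. Scanner, background correction, normalization and filters are not given in the sources used here. Array medians were 0.01 and 0.02, so a shift of all genes would not be seen. Of 21919 probes, 21427 had both values, and 15998 had 1 gene symbol in the platform's annotation. The ratio against 0 was tested with limma 3.58.1 in R 4.3.3 (intercept, two-sided, Benjamini-Hochberg over 21427 probes at 0.05), with 1 residual degree of freedom and 3.43 prior degrees of freedom. The median half-width of the 95% interval was 0.396. The test and the fold rule were tested on simulated data in 20 runs, with 100 probes changed by log2 1 and 100 by log2 2. On average limma called 1.95 of the former, 84.25 of the latter and 6.6 unchanged probes. The fold rule passed 25.8, 98.2 and 34.95 of these. Sizes and signs used 1 mean per gene. All members with a value are named, with genes of other lists if at least 2-fold on both arrays or fixed by name. For 5 p53 targets the names were added after their values were seen. Members and lists were chosen with earlier results of these data known. Centring, scaling, probe choice, prior, thresholds and single arrays were varied.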

Additional observations from a re-analysis of the deposited data

How the results depend on the processing

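Median centring, quantile normalization, the median over probes and probes with a single value left every repair count within 1.5 times and changed the sign of 0 member means, with a median of -0.225 to -0.21. limma called 0 probes under each of 6 alternatives. Without moderation 241 were called, all 241 with equal values on the arrays. At 1.5-fold the repair genes past the fold rule were 3 negative and 1 positive of 41, where 425 and 176 of all 14150 genes were. With the values read as natural logs 2 repair genes were past it on the negative side. Where a value had to lie at least 0.1 from 0 on both arrays, 20 repair genes were negative and 6 positive. Neither that setting nor the natural-log reading was counted over all genes. On single arrays the repair median was -0.30 to -0.13, the genes on the negative side numbered 25 to 32, those on the positive side 8 to 15, and those at least 2-fold on the negative side 2 to 3. The sign of 4 genes turned without array 1 and of 5 without array 2, relative to the mean of both. Each ratio already pairs both stages within an array, so the test against 0 is the paired one, and with 1 group no further replicate block could be added.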
